A study of Mus musculus with 4 samples.

Results

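Abundant long noncoding RNAs of neural tissue were read in the cerebellum of mice that lack Derlin-2 in the central nervous system. The members were fixed by name as Meg3, Rian, Mirg, Miat, Malat1, Neat1, Snhg11, Snhg1, Gas5 and Peg13, and a probe was taken as theirs when the RefSeq accession listed for it in the scanner files maps to the gene. By that rule 7 of the 10 genes had a probe, 12 probes in all out of 56605 on the array. No accession in the files mapped to Malat1, Snhg11 or Gas5, and these 3 genes are not analysed here. Some probes could not be named by that rule, so the array may still hold probes for these genes. Of the 12 probes, 11 were well above background on all 4 arrays and were tested, so none entered through a single group; the second of 2 Miat probes was well above background on 0 of 4 arrays and was not tested.

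The 4 arrays are 2 control and 2 knockout (KO) cerebella taken at postnatal day 28 from C57BL/6 mice kept free of specific pathogens. Controls were Derlin-2flox/flox, and the labels name no Cre allele for them. The KO animals came from crosses of Derl2flox/flox mice with mice carrying Cre recombinase under the nestin promoter, which acts in the precursors of neurons and of most glia, so that cells of other origin, such as microglia and blood vessel cells, would keep the gene. Nothing in the labels says that each array is a separate animal, and p-values then measure only the spread between these samples, which may be technical. All arrays shared 1 slide, with controls at positions 1 and 2 and KO at positions 3 and 4, so position and group cannot be told apart. Derl2 checked the labels: on its brighter probe the KO signal was 37.6% of control, and on the other 30.2%. The tissue was also checked against 10 granule cell and 10 Purkinje cell markers, all of which had a probe that was kept. Over the arrays, the mean log2 signal ran from 4.45 to 4.53 for the granule cell list and from 5.36 to 5.63 for the Purkinje cell list. The median differences of these lists, KO minus control, were −0.033 and −0.031. Among the Purkinje cell markers Car8 stood apart on 1 array, with 1.02 on KO replicate 1 against 3.78 on KO replicate 2 and 3.99 and 3.13 in control, in the log2 signal defined further on.

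Meg3, Rian and Mirg are transcribed from the maternal chromosome within one imprinted region, between the paternally expressed genes Dlk1 and Dio3; Rian holds small nucleolar RNAs (snoRNAs) in its introns, and Mirg hosts a large cluster of microRNAs. Miat, also called Gomafu, stays in the nuclei of neurons, Malat1 gathers in nuclear speckles, and Neat1 is the scaffold of paraspeckles, nuclear bodies that hold RNA and splicing proteins. Snhg1, Snhg11 and Gas5 are snoRNA host genes whose spliced exons carry no long reading frame; those of Snhg1 and Gas5 are broken down by nonsense-mediated decay, which depends on translation. Peg13 is a paternally expressed RNA that lies within an intron of Trappc9.

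The annotated starts of the 3 maternally expressed neighbours are shown first, because their transcripts lie in 1 imprinted region. Whether transcription begins at each of these starts was not measured. Each sequence is 300 bases long, of which the last 50 follow an annotated start, and is given 5′ to 3′ on the strand of the gene, from RefSeq on GRCm38.p6. Capitals mark a cAMP response element (TGACGTCA), its core TGACG and the CCAAT box, searched on both strands; the element reads alike on both and overlaps 2 cores.
Meg3, chr12:109540746-109541045, plus strand: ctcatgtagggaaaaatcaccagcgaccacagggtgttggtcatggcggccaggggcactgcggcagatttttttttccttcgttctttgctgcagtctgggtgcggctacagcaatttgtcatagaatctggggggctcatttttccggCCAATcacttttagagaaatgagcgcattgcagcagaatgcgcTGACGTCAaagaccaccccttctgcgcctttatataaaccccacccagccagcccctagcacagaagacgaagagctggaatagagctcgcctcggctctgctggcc
Rian, chr12:109603695-109603994, plus strand: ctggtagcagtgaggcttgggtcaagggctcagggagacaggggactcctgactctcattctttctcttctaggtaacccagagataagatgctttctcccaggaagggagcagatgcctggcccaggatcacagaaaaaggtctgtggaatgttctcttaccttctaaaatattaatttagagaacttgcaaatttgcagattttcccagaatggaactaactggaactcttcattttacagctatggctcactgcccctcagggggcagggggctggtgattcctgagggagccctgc
Mirg, chr12:109734731-109735030, plus strand: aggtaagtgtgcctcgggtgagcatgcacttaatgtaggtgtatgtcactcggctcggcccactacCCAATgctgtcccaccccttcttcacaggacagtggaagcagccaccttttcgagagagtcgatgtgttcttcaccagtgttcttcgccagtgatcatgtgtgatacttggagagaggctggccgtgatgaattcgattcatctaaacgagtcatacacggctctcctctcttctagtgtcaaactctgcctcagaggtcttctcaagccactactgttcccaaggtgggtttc
The Meg3 window holds 1 full cAMP response element, whose first base lies 57 bases before the start, and 1 CCAAT box, 100 bases before it. The element occurs in 1.79% of all 32851 promoter windows of this length, the core in 20.8% and the CCAAT box in 37.4%. The Rian window holds none of these and the Mirg window a CCAAT box alone. A second annotated Meg3 start has none. Motifs tied to endoplasmic reticulum (ER) stress were searched in the same way: TGACGTGG occurs in 0.676% of windows, TGATGNAA in 3.97% and the ER stress element, which contains a CCAAT box, in 0.119%, and none of these is in a window of Meg3, Rian, Mirg, Miat or Snhg1. The CpG count was 13 in the first Meg3 window, 0 in that of Rian and 10 in that of Mirg. Of the genes for which no probe was named, Gas5 has the full element at its second annotated start, 46 bases before it. The table used has no window for Neat1 or Peg13.

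The products of these hosts differ as well. Mature microRNAs that lie within the annotated spans on the same strand number 3 for Meg3, 6 for Rian and 19 for Mirg. One or more from each host is given to show what the transcript carries, with the seed, bases 2 to 8, in capitals; the probes described here do not measure them.
Within Meg3, mmu-miR-770-3p: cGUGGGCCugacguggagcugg
Within Rian, mmu-miR-370-3p: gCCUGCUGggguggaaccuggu
Within Mirg, mmu-miR-410-3p: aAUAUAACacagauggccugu
Within Mirg, mmu-miR-453: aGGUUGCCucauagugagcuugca
Within Mirg, mmu-miR-496a-5p: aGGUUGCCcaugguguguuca
The last pair share the seed GGUUGCC, the only seed found more than once among the mature sequences of these 3 hosts.

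Signals are given as log2 of the processed signal minus the 75th percentile of the array, so 0 is the brightness below which 75% of probes lie. Brightness depends on the probe as well as on the RNA, and levels of different genes are not set against each other. Of the 11 tested probes, 7 lay above 0 on all 4 arrays, the 4 of Meg3 and those of Rian, Mirg and Peg13. Those of Neat1 and Snhg1 lay below it on all 4. These positions describe the probes, and how abundant the RNAs are relative to one another was not measured. No member probe had a spot with an outlier flag or on a patch of raised local background.

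The largest member differences were those of Meg3. It was higher in KO on all 4 of its probes, by 1.25-fold to 1.46-fold, with both KO arrays above both control arrays each time. On the brightest probe, A_55_P2736010, the signal was 5.63 and 5.64 in control and 6.09 and 5.88 in KO. The means were 5.63 ± 0.00494 (SD, n = 2) and 5.99 ± 0.149 (SD, n = 2), a log2 difference of 0.36 (SE 0.12, 95% interval 0.034 to 0.68; limma p 0.0369, adjusted p 0.334). On A_65_P01584, listed for the same transcript accession, the signal was 3.94 and 3.94 in control and 4.65 and 4.31 in KO, a difference of 0.54 (SE 0.151, interval 0.14 to 0.95; limma adjusted p 0.298). The controls were nearly equal there, and the KO arrays lay 0.71 and 0.37 above them.

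The other Meg3 probes are listed for a second transcript of the gene. A_51_P455997 gave 5.14 and 5.18 in control and 5.57 and 5.39 in KO, a difference of 0.32 (SE 0.116, interval 0.0098 to 0.63; limma adjusted p 0.348). A_55_P2033407 gave 1.89 and 1.64 in control and 2.39 and 2.08 in KO, a difference of 0.47 (SE 0.167, interval 0.027 to 0.92; limma adjusted p 0.343). The 4 differences had the same sign and unequal sizes. The files hold neither the sequences of the probes nor their place in the transcript, so the 4 values were not assigned to isoforms; they come from the same 4 RNA samples and are not replicates of each other.

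KO replicate 1 was above KO replicate 2 on every Meg3 probe. Against the control mean, the median over the 4 probes was 0.55 on KO replicate 1 and 0.29 on KO replicate 2. The same array was further from the controls for some other lists of genes, but not for all. The median over 13 ER chaperone genes was 0.79 and 0.28, and over 12 oligodendrocyte markers it was −0.44 and −0.19. Of these markers 11 of the 12 were below 0, with a mean log2 signal of 4.03 and 3.83 in control and 3.53 and 3.80 in KO. The exception, Ermn, was at 0.37 with KO higher and separate groups (limma p 0.0183, adjusted p 0.294). Microglia markers had a median of −0.38 and −0.069, with 11 of 11 below 0 and a mean log2 signal of 0.83 and 0.74 in control and 0.43 and 0.71 in KO. For astrocyte and Bergmann glia markers, 8 of 10 below 0, the median was −0.11 on KO replicate 1 and −0.16 on KO replicate 2. Over 13 other brain long noncoding RNAs it was 0.063 and 0.11 in that order, and over Purkinje cell markers −0.02 on both. Over all genes with a kept probe, 10557 of 16524 were below 0, with a median of −0.064. The part of these lists in the Meg3 difference was not tested. In a piece of tissue, fewer cells of a type and less RNA per cell cannot be told apart.

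**Figure D1:**
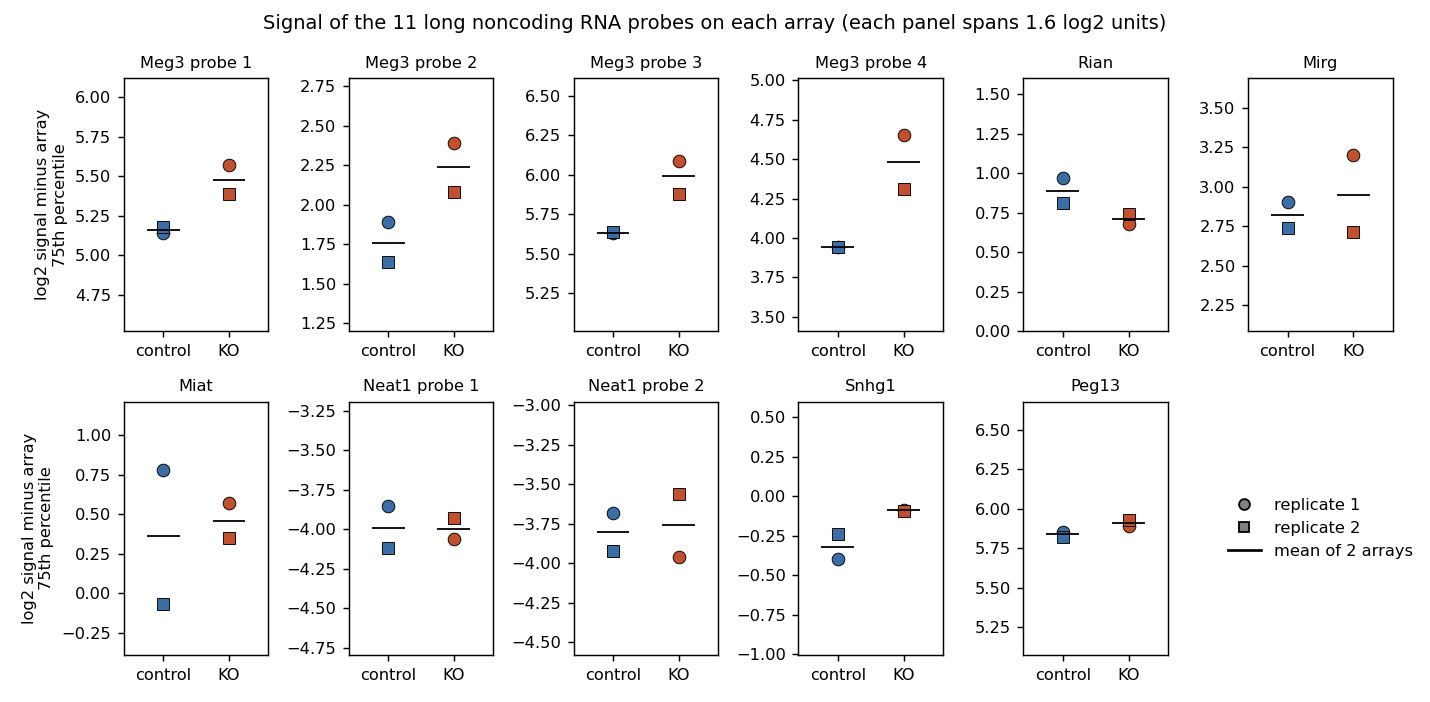
Log2 signal minus the array's 75th percentile (vertical axis) for each of the 11 tested probes, with 2 control arrays in blue and 2 KO arrays in red, circles for replicate 1, squares for replicate 2 and a line at the group mean. Both KO arrays lie above both control arrays in the 4 Meg3 panels, Snhg1 and Peg13, below them for Rian, and the groups overlap for Mirg, Miat and Neat1.

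Rian and Mirg, the neighbours of Meg3, gave smaller differences. Rian had a signal of 0.97 and 0.81 in control and 0.68 and 0.74 in KO. Both KO arrays were the lower, and the difference of −0.18 (SE 0.113, interval −0.48 to 0.13; limma adjusted p 0.521) stands against a control SD of 0.113. It was −0.092 under spike-in scaling and ran from −0.26 to −0.096 with an array left out. Mirg had 2.90 and 2.74 in control and 3.20 and 2.71 in KO, a difference of 0.13 (SE 0.201, interval −0.41 to 0.67; limma adjusted p 0.786). The KO arrays lay on either side of both controls, and without KO replicate 1 the difference was −0.12. Whether Meg3 differed more than Rian or Mirg was not tested.

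Of the protein-coding genes listed for the region, Dlk1, which encodes a membrane protein related to Notch ligands, had a signal of −2.34 and −3.63 in control and −4.11 and −4.63 in KO. Both KO arrays were the lower, by a log2 difference of −1.38 (SE 0.482; limma p 0.0412, adjusted p 0.341), with the controls themselves far apart. This probe is dim, and with normexp background correction the difference was −0.66; with an array left out it ran from −2.03 to −0.74. Begain, a gene that flanks the region, had overlapping groups and a difference of −0.067 (SE 0.142; limma adjusted p 0.846). Rtl1 and Dio3 had probes, but none was well above background on both arrays of a group.

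Snhg1 was higher in KO with groups apart. Its signal was −0.40 and −0.24 in control and −0.088 and −0.095 in KO, so the KO arrays nearly coincided. The means were −0.32 ± 0.111 (SD, n = 2) and −0.091 ± 0.00458 (SD, n = 2), a difference of 0.23 (SE 0.11, interval −0.068 to 0.53; limma p 0.101, adjusted p 0.43), or 1.17-fold. It ran from 0.15 without control replicate 1 to 0.31 without control replicate 2.

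Other snoRNA host genes were read from a list of 16, of which 13 had a kept probe. At an unadjusted limma p under 0.05, 3 were higher in KO and 0 lower, and 0 passed the adjusted threshold; 8 of the 13 had separate groups with KO higher and 1, Snhg9, with KO lower. Over all 16524 genes with a kept probe, 522 were higher and 934 lower at that unadjusted p. Of the same genes, 2281 had separate groups with KO higher and 5318 with KO lower, and 5967 were above 0 and 10557 below. Counted over all 37516 tested probes instead, the lean at that p was the other way, with 3319 higher and 1948 lower. Separate groups still leaned lower there, with 8422 probes higher in KO and 10094 lower. The gene counts are the ones set beside the lists below. The median difference of the 13 listed hosts was 0.092, against −0.064 over all genes with a kept probe. Snhg5 gave 1.54 and 1.61 in control and 2.11 and 2.06 in KO, a difference of 0.51 (SE 0.1; limma p 0.00566, adjusted p 0.273). Snhg12 gave 1.51 and 1.36 in control and 1.90 and 1.75 in KO, a difference of 0.39 (limma p 0.0282, adjusted p 0.317). Snhg20 gave 3.0 and 3.05 in control and 3.40 and 3.29 in KO, a difference of 0.32 (limma p 0.0348, adjusted p 0.332). The list was uneven: Snhg3 differed by 0.011 and Snhg6 by 0.00083, while Snhg18 was at −0.26 with overlapping groups.

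The factors of nonsense-mediated decay, which removes spliced Snhg1 and Gas5, showed no shared direction. Of 14 genes with a kept probe, 7 were above 0 and 7 below, with a median of 0.005. Over all 16524 genes, 5967 were above 0 and 10557 below, with a median of −0.064. At an unadjusted p under 0.05 there was 1, Smg1, the kinase that acts on Upf1, higher by 0.34 (SE 0.116; limma p 0.0389, adjusted p 0.336). Its other kept probe was at 0.55. At that unadjusted p, 522 of all genes were higher and 934 lower. Eif4a3, a core protein of the exon junction complex, was at −0.28 (SE 0.138; limma adjusted p 0.437), and Upf3b at 0.17 on its brightest probe and −0.0085 on another.

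Neat1 and Miat overlapped between the groups. On the brighter Neat1 probe, A_65_P09473, the signal was −3.68 and −3.92 in control and −3.96 and −3.56 in KO, a difference of 0.038 (SE 0.185, interval −0.46 to 0.54; limma adjusted p 0.936). Each group held a high and a low array, with both the lowest and the highest of all in KO. The other Neat1 probe differed by −0.01 (interval −0.39 to 0.37). Both Neat1 probes were dim, which limits this reading. Miat gave 0.78 and −0.066 in control and 0.57 and 0.35 in KO, a difference of 0.10 (SE 0.312, interval −0.74 to 0.94; limma adjusted p 0.896). The controls were the extremes on both sides, and this was the widest interval of any member. Control replicate 2, the low Miat array, also carried choroid plexus markers, with a mean log2 signal of 2.23 over 9 genes against −2.47 on control replicate 1 and −2.11 and −2.89 in KO; their part in the Miat values was not tested.

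The mRNAs of proteins of paraspeckles, nuclear speckles and splicing were mixed, and protein was not measured. Of 11 paraspeckle proteins, at an unadjusted p under 0.05, Sfpq and Cpsf6 were higher in KO and Nudt21 lower, where 522 of all 16524 genes were higher and 934 lower. Sfpq, which Neat1 binds directly, gave 2.81 and 2.64 in control and 3.15 and 3.07 in KO, a difference of 0.39 (SE 0.116; limma p 0.025, adjusted p 0.309), with 0.34 to 0.37 on its other probes. Nudt21, a subunit of a 3′ end cleavage factor, gave 1.1 and 1.11 in control and 0.72 and 0.70 in KO, a difference of −0.39 (SE 0.0969; limma p 0.0128, adjusted p 0.283), with −0.20 on its other probe. Cpsf6, its partner in that factor, was at 0.33 on its brightest probe, but the other probes ran from −0.21 to 0.39. Of 12 nuclear speckle and splicing factors, 10 were above 0 and 2 below, against 5967 and 10557 of all genes, with a median of 0.11. Srrm1 (0.26; limma p 0.0495, adjusted p 0.355) was the only one with an unadjusted p under 0.05, and its other probe was at −0.056. Srsf7 was at 0.31 and Srsf1 at 0.15, both with separate groups and KO higher. In all, 5 of the 12 were separate with KO higher and 1 with KO lower, against 2281 and 5318 of all 16524 genes. The 2 below 0 were Qk, at −0.14 with separate groups, and Celf3, at −0.089 with overlapping groups.

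Peg13 gave a small difference. Its signal was 5.85 and 5.82 in control and 5.89 and 5.93 in KO. The groups were apart, but by a difference of 0.074 (SE 0.0978, interval −0.19 to 0.34; limma adjusted p 0.747), or 1.05-fold. The difference depended on the scaling, at 0.17 under quantile normalization and 0.16 under spike-in scaling (limma adjusted p 0.521 and 0.546). Around it, Trappc9 was at −0.13 and 0.0021 on its other probe, Ago2 at 0.027 and −0.22 on its other probe, and Chrac1 at −0.23, the last with both KO arrays the lower (limma adjusted p 0.42). Kcnk9, a potassium channel gene, was dim and at 0.33 (SE 0.209; limma adjusted p 0.513), or 0.1 with normexp and 0.12 to 0.55 with an array left out.

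**Figure D2:**
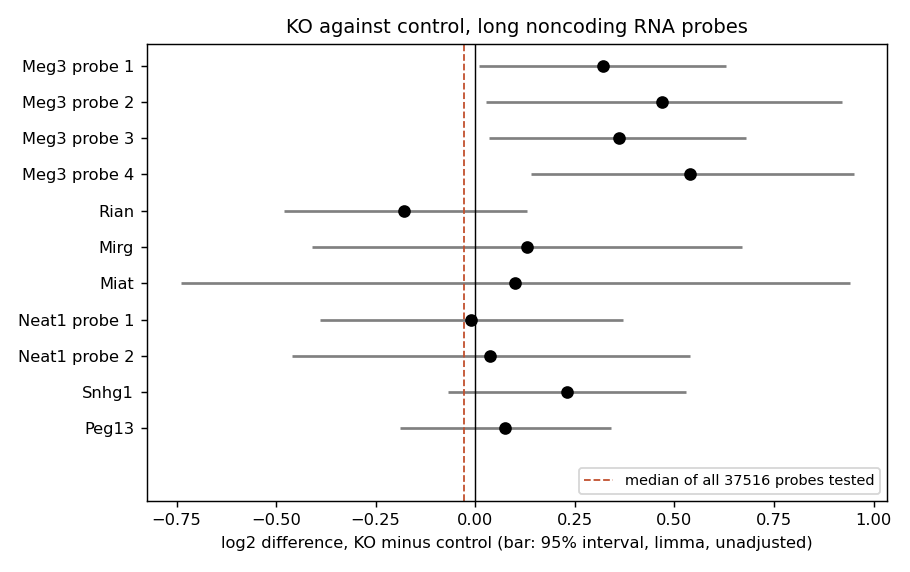
Log2 difference, KO minus control (horizontal axis), for the 11 tested probes, with the unadjusted 95% interval from limma as a bar and the median of all 37516 tested probes as a dashed line. The 4 Meg3 intervals lie above 0, from 0.0098 at the lowest end to 0.95 at the highest, and the other 7 include 0.

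Across all probes, 0 of 37516 probes passed an adjusted p under 0.05 (0% called), and 5267 had an unadjusted p under 0.05. Among the 11 member probes 4 had an unadjusted p under 0.05, all of them higher in KO, where 14% of all probes were called in either direction, 8.85% as higher and 5.19% as lower in KO. All 4 belong to Meg3, so this is a count of 1 gene. By separate groups, 7 of 11 member probes did not overlap, 6 of them higher in KO, where 49.4% of all probes did not overlap, 22.4% with KO higher and 26.9% with KO lower. Of the 6, 4 are again the probes of Meg3; counted by gene, 3 of 7 were separate with KO higher and 1 with KO lower, against 2281 and 5318 of 16524 genes. Taking the brightest probe of each gene, 6 of 7 genes were above 0, with a median of 0.10 and a range of −0.18 to 0.36. Over all genes 5967 of 16524 were above 0, with a median of −0.064. Of the 6, Mirg, Miat and Neat1 changed sign with an array left out. Without control replicate 1 the count of 4 member probes fell to 1, without control replicate 2 to 0, without KO replicate 1 to 1, and with no filter on dim probes to 1, while without KO replicate 2 it was 4. Meg3 kept its direction on all 4 probes under all 15 alternatives that refit the probes; its brightest probe ran from 0.32 to 0.44 with all arrays and from 0.25 to 0.46 with an array left out, at adjusted p from 0.165 to 0.76.

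Of other imprinted genes, 20 of 21 listed had a kept probe, with a median of −0.079 and 14 below 0, against a median of −0.064 and 10557 of 16524 below 0 over all genes. Kcnq1ot1, a paternally expressed nuclear RNA, was the only one with an unadjusted p under 0.05. It gave 3.39 and 3.44 in control and 3.88 and 3.90 in KO, a difference of 0.47 (SE 0.0983; limma p 0.00693, adjusted p 0.273), and its 4 other probes ran from 0.13 to 0.51. Cdkn1c, a cell cycle inhibitor of the same imprinted domain, was at −0.44 (SE 0.203; limma adjusted p 0.417), and Nnat at −0.24, both with KO lower and separate groups. With an array left out Cdkn1c ran from −0.68 to −0.20 and Nnat from −0.37 to −0.10. Of 19 other brain long noncoding RNAs listed, 13 had a kept probe. Of these 9 were above 0 and the median was 0.076, against 5967 of 16524 and −0.064 over all genes. At an unadjusted limma p under 0.05 there were 0, where 522 of all genes were higher and 934 lower. Dleu2 was at 0.28, Cdr1os at 0.25 and Mir124a-1hg, a host of miR-124, at 0.23, each with separate groups and KO higher. In all 5 of the 13 were separate with KO higher and 3 with KO lower, against 2281 and 5318 of all 16524 genes. The 3 lower were Pvt1 at −0.35, Jpx at −0.20 and Sox2ot at −0.18.

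**Figure D3:**
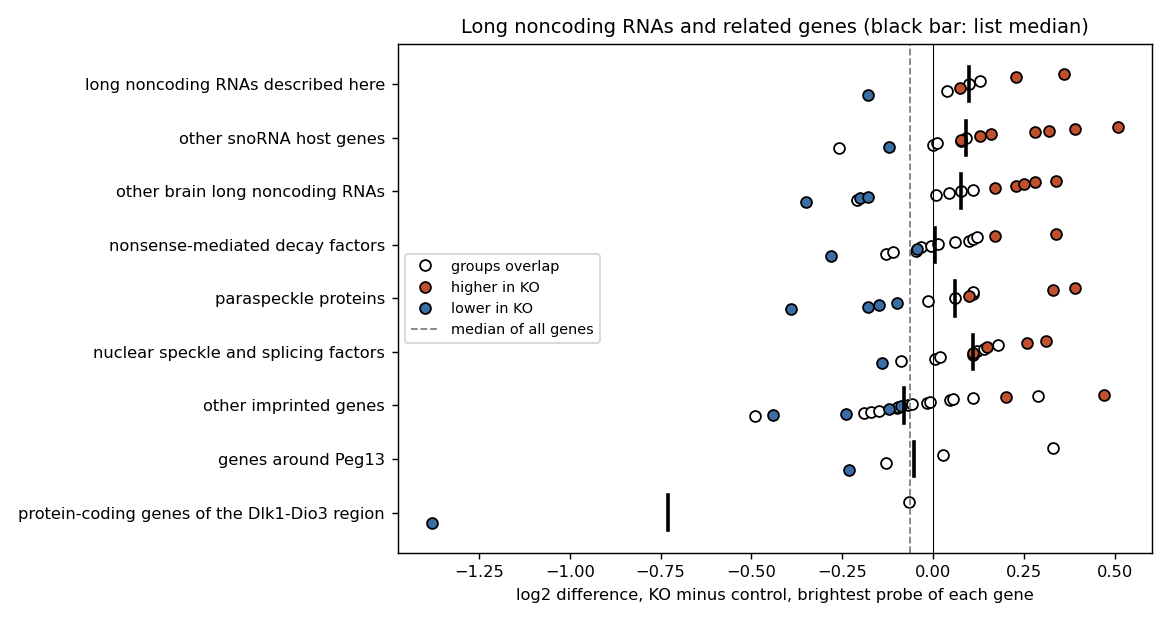
Log2 difference, KO minus control, on the brightest kept probe of each gene (horizontal axis) for the long noncoding RNAs described and 8 related lists; filled points have groups that do not overlap (red, KO higher; blue, KO lower), open points overlap, black bars are list medians and the dashed line is the median of all genes. Meg3 (0.36) and Snhg5 (0.51) are the rightmost points of the top pair of rows, and Dlk1 (−1.38) is the leftmost of all.

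The genes whose values over the 4 arrays were most like those of Meg3 were picked by the root mean square distance between centred log2 values on the brightest probes, among 16060 other genes. They were 4930503L19Rik (distance 0.00582), Clk4, a kinase of splicing factors (0.0101), and Rbm48, which encodes an RNA-binding protein (0.0155). Clk4 gave 2.30 and 2.32 in control and 2.77 and 2.58 in KO. The likeness is a description over 4 arrays.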

How the data were processed

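Cy3-labelled cRNA was made from 150 ng total RNA per sample, per the labels' protocols, and read on Agilent arrays with 1 colour. The processed signal in the deposited scanner files is a linear intensity from which Feature Extraction had already taken background and spatial trend; the file headers give version 12.1.1.1 and the submitters' processing notes 10.7.1.1. Per the file headers, flag columns mark control, outlier, saturated and well-above-background spots.

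Spots with an outlier flag were dropped, log2 signal was averaged per probe, and each array's 75th percentile (9.50 to 9.64) was subtracted. A probe was kept when either group had both arrays well above background, 37516 of 56559. Of 35886 probes with a RefSeq accession, 32994 were named through RefSeq tables of GRCm38.p6. The groups were compared with limma 3.58.1 (R 4.3.3; lmFit, eBayes, no covariates, 4.35 degrees of freedom) and Benjamini-Hochberg adjustment over all kept probes; the code was tested on simulated data. The number of arrays limits the precision. A gene with several probes is represented by the brightest kept one. The 3 genes of smallest p in each related list were to be named, and further ones were chosen after their values were seen. Members and lists were chosen with earlier results of these data known.

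The deposited series table holds log2 values from the authors, with column medians of 0.00706, −0.194, −0.16 and −0.222. Its differences between arrays equalled those used here within 0.01 for 100% of 35661 probes, up to a constant per array; the value on which each probe was centred stays unknown.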

Additional observations from a re-analysis of the deposited data

How the results depend on the processing

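Of 112 values of 7 member genes under 16 alternatives, all but 5 kept their direction. None of those with an adjusted p passed the threshold; the mean over all probes of a gene was not tested. The exceptions came with an array left out: Miat was −0.32 without control replicate 2 and −0.0052 without KO replicate 1 (range −0.32 to 0.53), Neat1 −0.083 without control replicate 2 and −0.16 without KO replicate 2 (range −0.16 to 0.24), and Mirg −0.12 without KO replicate 1 (range −0.12 to 0.38); the cause was not tested. The count of 4 member probes with an unadjusted p under 0.05 was 1 with no filter on dim probes and ran from 0 to 4 with an array left out. The median over the member genes ran from 0.049 to 0.21 with an array left out, and was 0.19 under spike-in scaling and 0.17 under quantile normalization. In those fits the group left with 1 array borrows its spread from the remaining pair. The count of all probes past the adjusted threshold, 0, became 4 under an intensity trend with robust variances, 2 under normexp, and 1 under each of spike-in scaling, patch spots left out, quantile normalization and scaling to the median of detected probes. It ran from 0 to 512 with an array left out. Over the scalings, the median of all probes stayed within 0.1 of its value on the log2 scale. Same-numbered arrays deviated together only weakly (correlation 0.143) and share only a number. With the replicate number as a block, 3 member probes had an unadjusted p under 0.05, 0 probes passed the adjusted threshold and the member median was 0.10. Dim signal limits Dlk1 and Kcnk9, whose differences were −0.66 and 0.1 under normexp, against −1.38 and 0.33. It also limits Neat1, whose brighter probe differed by 0.019 under normexp, against 0.038.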
